A study of Mus musculus with 30 samples.

Results

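Late embryonic mouse ovaries were compared with early ones after pooling neighbouring ages. The late group held the 4 numbered samples of 16.5 and 18.5 days post coitum (dpc), and the early group held the 4 numbered samples of 11.5 and 12.5 dpc, 2 samples per age. Each numbered sample was measured on 3 Affymetrix oligonucleotide array types, called A, B and C, which carry different sets of probes, so the comparison used 24 of the 30 arrays and 8 of the 10 numbered samples. The 2 samples of 14.5 dpc were left out of both groups and are given beside them. A gene is described as separated when all 4 late samples lay on the same side of all 4 early samples, and its direction is that of the late samples.

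All groups shared tissue, strain and extraction. Per the labels, ovaries of mixed C57BL/6 and 129 mice were pooled, total RNA was prepared with TRIzol, and the sex of gonads of 11.5 and 12.5 dpc was read from a PCR of Sry. Whether both samples of 1 age were made from different pools is not stated. The p-values therefore measure only how these samples spread, and that spread may be technical. An ovary of these ages is a mixture of germ cells, supporting cells, stroma, surface epithelium, vessels and blood. In such bulk RNA, fewer cells of a type and less RNA per cell cannot be told apart.

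As background, primordial germ cells reach the fetal gonad, divide there as cysts and express genes shared with pluripotent cells. In a female gonad they then stop dividing, enter meiotic prophase, and pair and recombine their chromosomes before birth. Around them, cells of the gonadal surface and core become pregranulosa cells, which later enclose each oocyte in a follicle, while stroma and vessels form between the cysts. The early group precedes most of this, and the late group covers meiotic prophase and the first oocyte genes.

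Values are the deposited signals, after scaling of each array to a mean of 125 by the authors. Differences are late minus early on the log2(signal + 16) scale, on which genes of low signal change by less than they do in signal, and are followed by ± the standard error of the limma model. A fold is taken from the same scale. Probe sets were tested if they read at least 50 on at least 2 of the 10 arrays of their type. A gene low in 1 group could thus be tested through its signals elsewhere alone, and such a gene could hardly have moved the other way. A gene was called at an adjusted p under 0.05 over all 24825 probe sets tested. The error of the model is the spread between samples of the same age, so an age difference inside a group does not count as error. On array A the correlation of log2 signals was 0.927 to 0.967 between early samples, 0.934 to 0.974 between late samples, and 0.856 to 0.905 between an early and a late sample. The Gapdh control probe sets gave a ratio of 3 prime to 5 prime signal of 0.835 ± 0.008 (SD, n = 4) in the early samples and 1.033 ± 0.079 (SD, n = 4) in the late samples, with no overlap. This ratio differed by 0.198 (2-sided exact permutation p = 0.029, the smallest that 4 against 4 can give; 0.116 after adjustment over 4 controls), and its part in the results below was not tested. Probe sets of the Y-linked genes Kdm5d, Uty and Eif2s3y were too low to be tested, at 37.2 or less in all 10 samples. The array A probe set of Xist, which is transcribed from the inactive X chromosome, read 74.7 in 11.5 dpc replicate 1 and 236 to 398 in the other 7 early and late samples. Without 11.5 dpc replicate 1, 2486 probe sets were called higher and 2144 lower, against 2612 and 2381 with it. Those called and separated were 2030 upwards and 1861 downwards, against 1971 and 1812. Separation is easier to meet with fewer early samples, so the last counts do not show what this sample contributed.

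Of the 24825 probe sets tested, 2612 (10.5%) were called higher in late ovaries and 2381 (9.59%) lower. The 4 late samples lay above the 4 early ones for 2562 probe sets (10.3%) and below them for 2405 (9.69%). Both criteria were met by 1971 probe sets upwards (7.94%) and 1812 downwards (7.3%). Counted as genes, with 1 probe set each, 1282 of 12589 were called and separated upwards (10.2%) and 1121 downwards (8.9%). The median change among the called and separated probe sets was 0.86 upwards and -0.83 downwards, and 759 rose and 641 fell by at least 2-fold. At least 8-fold changes were met by 23 probe sets upwards and 9 downwards. The share called and separated was 22.8% for array A, 14.2% for array B and 9.54% for array C. Leaving out 18.5 dpc replicate 1 lowered the called higher probe sets from 2612 to 1709 and the called lower ones from 2381 to 1660.

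**Figure D1:**
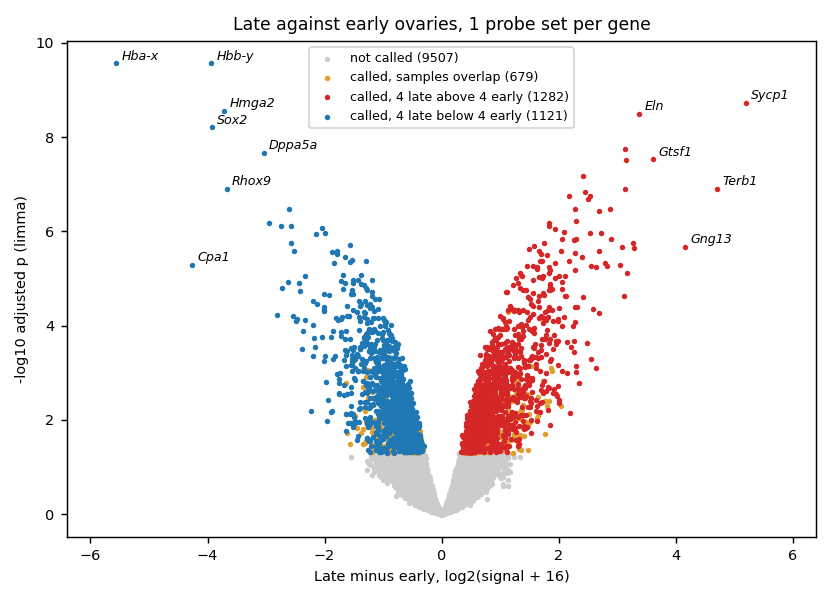
Each point is 1 of 12589 genes, with the late minus early difference on the log2(signal + 16) scale across and -log10 of the limma adjusted p upwards, from 10 arrays per array type. The 1282 genes in red had all 4 late samples above all 4 early ones, the 1121 in blue had them below, and Sycp1 and Hba-x mark the ends of the range.

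Genes of meiotic prophase rose. Of 26 members tested, 12 were called and separated upwards (46.2%, against 10.2% of all genes tested) and 0 downwards, and the median difference was 1.25 against 0.01 over all genes. The list had 49 entries, and the others had no tested probe set. Sycp1, Terb1, Meioc and Stra8 read 13 or less in every early sample and were tested only because of their 14.5 dpc or late signals. They could not have been called lower, so the counts by direction were partly set by the filter. At an unadjusted p under 0.05 in limma, 19 members were higher and 1 lower. Sycp1, which encodes the transverse filaments of the synaptonemal complex that joins paired chromosomes, read 3.1 and 1.3 (11.5 dpc), 7.5 and 13 (12.5 dpc), 404 and 239 (14.5 dpc), 609.9 and 747.5 (16.5 dpc), and 925 and 882 (18.5 dpc). Both early ages were near the bottom of the scale and every late sample was far above them, with the 14.5 dpc samples between. The difference was 5.19 ± 0.16 (limma adjusted p = 1.86e-09), or 36.6-fold, on this scale the largest rise among the genes tested with a mean late signal of at least 100. Terb1, which ties telomeres to the nuclear envelope so that chromosomes can move and pair, read 5.3 and 9.8 (11.5 dpc), 5.1 and 3 (12.5 dpc), 632 and 716 (14.5 dpc), 791.5 and 734 (16.5 dpc), and 302 and 514 (18.5 dpc). Its signal was already in the late range at 14.5 dpc. The difference was 4.70 ± 0.24 (limma adjusted p = 1.27e-07), and another Terb1 probe set rose by 1.88.

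Genes of the central element of the synaptonemal complex rose. Syce1 read 36.1, 112, 297 and 202 in the early samples, 1351 and 1613 at 14.5 dpc and 1394, 1364.5, 1045 and 1022 in the late samples. Tex12 read 271, 296, 280.1 and 274 in the early samples, 2909.5 and 3245 at 14.5 dpc and 2027, 1800.1, 1399 and 1624 in the late samples. For both genes 14.5 dpc was at or above the late level. The differences were 3.05 ± 0.24 for Syce1 and 2.53 ± 0.14 for Tex12, and Syce3 and Syce2 rose by 1.76 and 1.11. Among recombination genes, Spo11, whose product makes the DNA breaks that start recombination, read 304 and 418 (11.5 dpc), 305 and 293 (12.5 dpc), 1223 and 968 (14.5 dpc), 1916 and 1584 (16.5 dpc), and 907 and 1442 (18.5 dpc). Early and late samples did not overlap, and the difference was 2.06 ± 0.18 (limma adjusted p = 1.17e-05). Dmc1, the meiosis-specific strand exchange protein, read 13.9, 17.7, 23.2 and 33 early and 105, 107, 49.6 and 38 late and rose by 1.19 ± 0.19. Msh4 and Ccnb1ip1, which act in crossover formation, rose by 1.98 and 2.54.

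The genes that start the meiotic programme had their highest signals at 14.5 dpc, between the groups. Stra8, which is induced by retinoic acid and needed for meiotic entry, read 2.2 and 3.2 (11.5 dpc), 8.6 and 2.7 (12.5 dpc), 699 and 496 (14.5 dpc), 62.4 and 83.1 (16.5 dpc), and 23 and 9.7 (18.5 dpc). The late samples were above the early ones, but the 18.5 dpc samples came within a gap of 0.06 on the log2 scale. The difference was 1.40 ± 0.21 (limma adjusted p = 0.000627). Meioc, which keeps germ cells in the meiotic programme, read 7.2 and 9.5 (11.5 dpc), 1.6 and 0.8 (12.5 dpc), 762 and 411 (14.5 dpc), 364 and 277 (16.5 dpc), and 79.2 and 126 (18.5 dpc). Its 4 late samples lay well above the early ones and below 14.5 dpc, with a difference of 3.27 ± 0.24. Rec8, the meiotic cohesin, read 651 and 460.0 (11.5 dpc), 679 and 633 (12.5 dpc), 1563 and 1567 (14.5 dpc), 605 and 941 (16.5 dpc), and 734 and 677 (18.5 dpc) and was not called (0.28 ± 0.17, limma adjusted p = 0.297).

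Other members were called without separation. Sycp3, of the chromosome axis, read 30.5, 20.7, 6.2 and 9.1 early and 109.5, 9.7, 92.8 and 144 late, because 16.5 dpc replicate 2 lay inside the early range. Its difference of 1.47 ± 0.47 (limma adjusted p = 0.0433) missed the threshold when any sample other than 16.5 dpc replicate 2 was left out, at adjusted p from 0.0551 to 0.147. Stag3 (1.73), Hormad2 (1.31), Msh5 (1.0) and Brca2 (0.61) were called higher with overlapping samples. Trip13, which removes HORMAD proteins from synapsed axes, was called lower by -0.60 ± 0.20 and overlapped as well.

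The promoters of a gene of the complex and of an entry gene are shown because each holds a motif that was searched among the members that rose. They were chosen after the values were seen, and run from 250 bases before to 50 after the RefSeq start in assembly GRCm38.p6, 5′ to 3′ on the gene's strand. Capitals mark the match. The motifs were CACGTG, the palindromic E-box, and GCGGGAA, a form of the E2F site, searched on both strands. The match in Sycp1 begins at position -94 from the start (chr3:102936051-102936350, minus strand), and that in Meioc at -228 (chr11:102665335-102665634, plus strand).
Sycp1: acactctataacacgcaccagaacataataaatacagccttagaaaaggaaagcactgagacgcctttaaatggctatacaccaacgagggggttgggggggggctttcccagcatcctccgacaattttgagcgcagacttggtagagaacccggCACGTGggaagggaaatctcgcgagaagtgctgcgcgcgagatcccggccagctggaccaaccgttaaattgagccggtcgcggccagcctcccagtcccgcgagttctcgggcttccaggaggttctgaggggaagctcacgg
Meioc: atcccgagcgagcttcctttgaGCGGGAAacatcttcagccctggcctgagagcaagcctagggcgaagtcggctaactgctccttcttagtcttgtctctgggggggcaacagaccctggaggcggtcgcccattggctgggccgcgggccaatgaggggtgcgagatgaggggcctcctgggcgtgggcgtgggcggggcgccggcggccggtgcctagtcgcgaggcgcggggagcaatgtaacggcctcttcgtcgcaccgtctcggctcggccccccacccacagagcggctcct
CACGTG was present in 7.15% and GCGGGAA in 4.6% of the 32851 promoters of the table. Of the 12 meiotic genes that rose, 11 had a promoter there, and each motif was present for 3 of them (Sycp1, Syce2 and Tex12 for CACGTG; Meioc, Syce2 and Tex12 for GCGGGAA). Among all 10087 tested genes with a promoter, where a gene with several promoters counts if any holds the motif, the shares were 11.2% and 9.14%. Among all 24 tested meiotic members with a promoter, whichever way they moved, they were 20.8% and 29.2%, against 27.3% for each motif among the 11 that rose. A match describes letters in this window and is no evidence of binding.

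Genes of germ cell RNA handling rose too. Of 21 members tested, 9 were called and separated upwards (42.9%, against 10.2% of all genes) and 0 downwards, with a median of 1.01. In limma 14 members were higher at an unadjusted p under 0.05 and 0 lower. Gtsf1, a cofactor of PIWI proteins in transposon silencing, read 57.8 and 63.4 (11.5 dpc), 155 and 141 (12.5 dpc), 741 and 645 (14.5 dpc), 733 and 619 (16.5 dpc), and 2468 and 2941 (18.5 dpc). The 16.5 dpc samples lay close to those of 14.5 dpc, and the 18.5 dpc samples stood above all others. The difference was 3.61 ± 0.16 (limma adjusted p = 2.99e-08), or 12.2-fold. Mov10l1, the helicase of piRNA production, read 589, 630.3, 781 and 627 early, 1468 and 1816 at 14.5 dpc and 2007, 2275, 3567 and 3608 late. The early ages overlapped and each age after 12.5 dpc lay above the one before, with a difference of 2.06 ± 0.14 for this probe set and 0.28 for another (not called). Ybx2, which packages stored messenger RNA in germ cells, read 6.9, 10.6, 12.4 and 9.5 early and 24.8, 43, 239 and 238 late, so that most of its difference of 2.12 ± 0.20 came from 18.5 dpc. Tdrd7, Tex101 and Tdrkh rose by 1.71, 1.66 and 1.35.

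General germ cell markers differed in how early they appeared. Ddx4, the vasa helicase found in germ cells of both sexes, read 41.7 and 85.5 (11.5 dpc), 178 and 138 (12.5 dpc), 279 and 294 (14.5 dpc), 275 and 294 (16.5 dpc), and 327 and 355 (18.5 dpc). Its late samples were above all early ones by a gap of 0.58, with a difference of 1.51 ± 0.17 for this probe set and -0.32 for another (not called). Dazl, an RNA-binding protein that licenses germ cells for sexual differentiation, read 35 and 91.5 (11.5 dpc), 926 and 532 (12.5 dpc), 1185 and 431 (14.5 dpc), 640.3 and 735.5 (16.5 dpc), and 816.5 and 822 (18.5 dpc). The sample 12.5 dpc replicate 1 was above every late sample, so Dazl was called (1.73 ± 0.29) but not separated, and it was not called when late and early were fitted as 2 groups (adjusted p = 0.114). Another Dazl probe set overlapped between groups and was not called (-0.05).

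Oocyte genes differed in when they rose. Of 28 members tested, 5 were called and separated upwards (17.9%, against 10.2% of all genes) and 0 downwards, with 13 higher and 2 lower in limma at an unadjusted p under 0.05. Lhx8, a transcription factor that oocytes need to form primordial follicles, read 8.5 and 5.4 (11.5 dpc), 5.3 and 16.5 (12.5 dpc), 17.7 and 15.2 (14.5 dpc), 41.8 and 30.1 (16.5 dpc), and 589 and 679 (18.5 dpc). It was far higher at 18.5 dpc than at 16.5 dpc and before, with a difference of 2.90 ± 0.19 (limma adjusted p = 1.42e-06). Figla, which activates the zona pellucida genes, read 7.7 and 34.9 (11.5 dpc), 37.1 and 20 (12.5 dpc), 90.5 and 76.7 (14.5 dpc), 127 and 90.3 (16.5 dpc), and 245.5 and 305 (18.5 dpc). Early and late samples did not overlap, the 14.5 dpc samples were above all early ones, and it rose by 2.28 ± 0.23. Fbxo43, which restrains the anaphase-promoting complex in oocytes, read 27.2, 29.4, 15.7 and 11.5 early, 25.8 and 15.2 at 14.5 dpc and 147, 199, 149 and 138.5 late. Here 14.5 dpc remained in the early range, and the difference was 2.26 ± 0.31. Uchl1, a ubiquitin hydrolase abundant in oocytes, was in the late range already at 14.5 dpc (272 and 283) and rose by 1.34 ± 0.11, and Tle6, of the maternal complex under the egg membrane, by 0.94 ± 0.14.

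For several oocyte genes 16.5 dpc lay with the early ages and the pooled groups overlapped. Nobox, an oocyte transcription factor, read 26.7 and 38.9 (11.5 dpc), 33.6 and 29.8 (12.5 dpc), 35.1 and 36.7 (14.5 dpc), 37.5 and 31.3 (16.5 dpc), and 601 and 597 (18.5 dpc). It was called (1.87 ± 0.29, limma adjusted p = 0.000782) on the strength of the 18.5 dpc samples, and not in the fit of 2 groups (adjusted p = 0.114). Nlrp5, another gene of the maternal complex, read 10.6, 41.2, 28.6 and 24 early and 8.4, 59.7, 371 and 323 late. Ccno, which encodes cyclin O, read 8.2, 16.6, 6.1 and 11 early and 4.6, 5, 429 and 428 late. Its 18.5 dpc samples were far above every early one, and its 16.5 dpc samples were below them, but both near the bottom of the scale. The zona gene Zp2 read 31.8, 41.7, 57.8 and 47.4 early and 62.2, 55.1, 106 and 95 late and was called (0.64 ± 0.18, limma adjusted p = 0.0267) with overlap. The call of Zp2 was lost without 11.5 dpc replicate 1, 12.5 dpc replicate 2 or any late sample, at adjusted p from 0.0584 to 0.0917. Zp1 and Zp3 did not reach the signal needed for testing.

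Genes that primordial germ cells share with pluripotent cells fell. Of 24 members tested, 12 were called and separated downwards (50%, against 8.9% of all genes) and 1 upwards (Tfcp2l1, 0.70), with a median of -1.27. Sox2, a core pluripotency transcription factor, read 454 and 316 (11.5 dpc), 494 and 447 (12.5 dpc), 188 and 215 (14.5 dpc), 12.9 and 13.1 (16.5 dpc), and 14.8 and 10.5 (18.5 dpc). The late samples were near the bottom of the scale, far below every early one, with 14.5 dpc between, for a difference of -3.93 ± 0.14 (limma adjusted p = 6.17e-09), a 15.2-fold fall. Pou5f1, which marks germ cells before meiosis, read 250.3 and 193 (11.5 dpc), 521 and 313 (12.5 dpc), 121.5 and 102 (14.5 dpc), 30.7 and 21.7 (16.5 dpc), and 37.3 and 35.6 (18.5 dpc). Every late sample was below every early one, with a difference of -2.75 ± 0.17 for this probe set and 0.33 for another (not called). Nanog read 120.3, 167, 232 and 171 early, 33.1 and 47.6 at 14.5 dpc and 30, 15.3, 33.3 and 46.2 late, so that it was low already at 14.5 dpc, and it fell by 2.01.

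Further members of the same list followed. Dppa5a, an RNA-binding protein of pluripotent cells, read 1075 and 775 (11.5 dpc), 979.6 and 957 (12.5 dpc), 588 and 502 (14.5 dpc), 66.1 and 76.9 (16.5 dpc), and 131 and 146 (18.5 dpc). The order of the groups was early, 14.5 dpc and late with no overlap, and the difference was -3.04 ± 0.13. Utf1, a chromatin protein of pluripotent cells, read 172, 257, 433 and 353 early and 17.5, 15.7, 22.6 and 41.2 late, a difference of -2.96 ± 0.18. Another Utf1 probe set fell by 1.22 and a further one was not called (0.18). Tfap2c, which acts in germ cell specification, gave -2.49 ± 0.28, and Dppa4 gave -2.14 ± 0.14. Esrrb (-1.76), L1td1 (-1.63), Dppa2 (-1.58) and Zfp42 (-1.40) also fell. Sall4, another germ cell transcription factor, was not called (-0.31 ± 0.20).

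Pooling the late ages hid opposite moves in some germ cell genes. Dppa3, a maternal factor that protects the early embryo's DNA methylation, read 480.3 and 322 (11.5 dpc), 731 and 506 (12.5 dpc), 479 and 347 (14.5 dpc), 33.2 and 25.3 (16.5 dpc), and 1238 and 1086 (18.5 dpc). At 16.5 dpc it was below every early sample and at 18.5 dpc above every one. The pooled difference of -1.14 ± 0.17 (limma adjusted p = 0.000526) therefore described neither age, and in the fit of 2 groups it was not called (adjusted p = 0.48). Kit, the receptor for Kit ligand on germ cells and oocytes, read 89 and 103 (11.5 dpc), 156 and 119 (12.5 dpc), 70.2 and 96 (14.5 dpc), 37.5 and 32 (16.5 dpc), and 289.7 and 320.5 (18.5 dpc) and gave a pooled difference of -0.03 ± 0.14 (limma adjusted p = 0.904). Trim71, a repressor of messenger RNA in early cells, gave -0.10 ± 0.40 with the same order of ages. Of all 12589 genes tested, 55 lay below all early samples at 16.5 dpc and above them at 18.5 dpc, and 46 did the reverse. How many would do so with the samples in random order was not computed, so these counts are not read as reversals. The ages were not tested against each other.

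The Rhox genes, a cluster of X-linked homeobox genes active in reproductive tissue, split. Of 4 tested, 3 were called and separated downwards (75%, against 8.9% of all genes) and 1 upwards (25%, against 10.2%). Rhox9 read 2398 and 2510.4 (11.5 dpc), 5633 and 4716.5 (12.5 dpc), 2838 and 4302 (14.5 dpc), 424 and 252 (16.5 dpc), and 191 and 237 (18.5 dpc). It was as high at 14.5 dpc as in the early samples and low in all late ones, a difference of -3.67 ± 0.19 (limma adjusted p = 1.27e-07). Rhox6 and Rhox5 kept the same order, with differences of -2.62 ± 0.23 and -2.60 ± 0.15. Rhox13 read 302, 305, 408 and 242 early, 1695 and 2427 at 14.5 dpc and 1513.5, 1434, 1248 and 1343 late. It was high from 14.5 dpc on and rose by 2.10 ± 0.18.

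**Figure D2:**
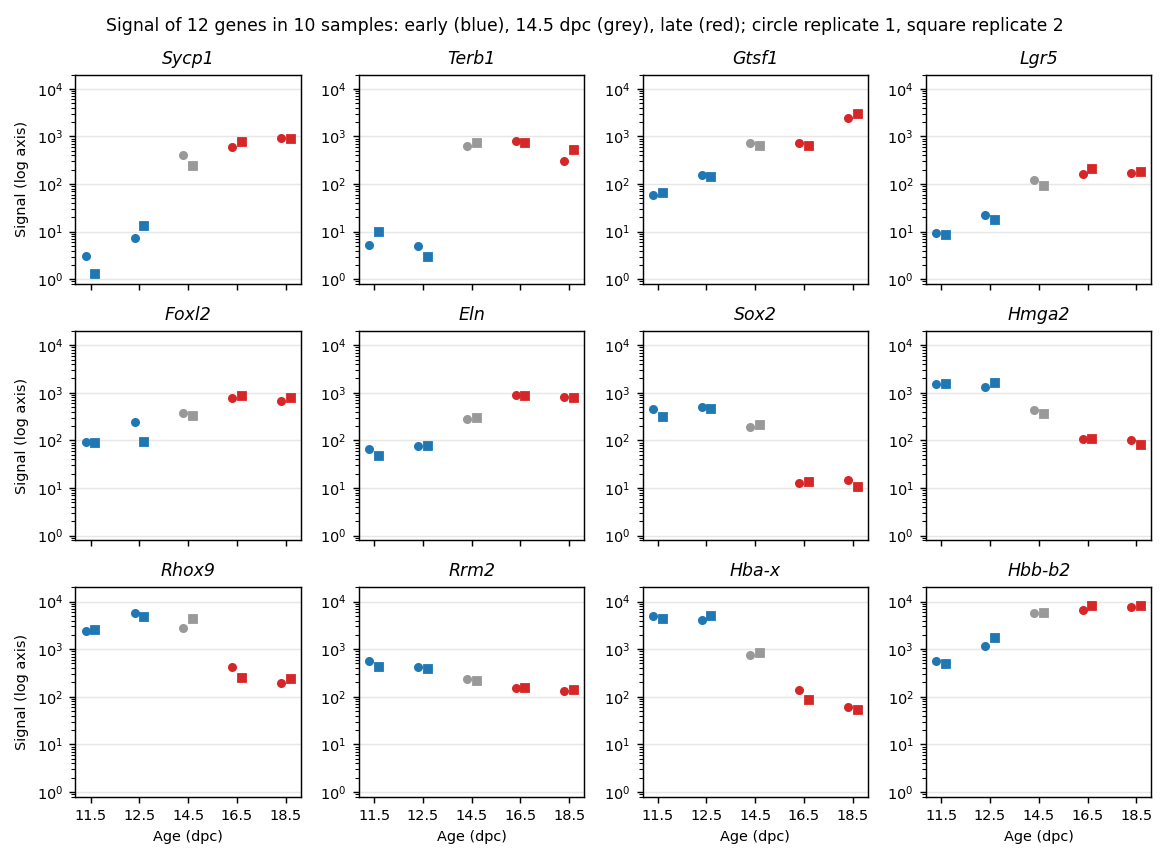
Signal (log axis) against age in dpc for 12 genes, with 1 point for each of 10 samples, early in blue, 14.5 dpc in grey and late in red. In every panel the 4 red points lie on the same side of the 4 blue ones, and the 14.5 dpc points lie with the blue ones for Rhox9, between the groups for Sox2 and with the red ones for Terb1.

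Pregranulosa and supporting cell genes moved in both directions. Of 32 members tested, 8 were called and separated upwards (25%, against 10.2% of all genes) and 6 downwards (18.8%, against 8.9%). Foxl2, the transcription factor that keeps granulosa cells female, read 94.5 and 89.5 (11.5 dpc), 243 and 92.8 (12.5 dpc), 374 and 328 (14.5 dpc), 792.5 and 858 (16.5 dpc), and 667 and 793 (18.5 dpc). Its early samples included a higher value at 12.5 dpc replicate 1 but stayed below all late ones, and the difference was 2.55 ± 0.22 (limma adjusted p = 5.38e-06). Lgr5, a receptor for R-spondins that marks surface-derived pregranulosa cells, read 9.3 and 8.3 (11.5 dpc), 22.4 and 17.9 (12.5 dpc), 123 and 89.8 (14.5 dpc), 159 and 204.5 (16.5 dpc), and 167 and 179.8 (18.5 dpc). It rose by 2.69 ± 0.15, with 14.5 dpc in the gap. Gng13, a G protein gamma subunit, read 31.5 and 48.9 (11.5 dpc), 129 and 64.6 (12.5 dpc), 536 and 351 (14.5 dpc), 766 and 2062 (16.5 dpc), and 1451 and 1545 (18.5 dpc). Its late samples spread widely, with 16.5 dpc replicate 1 the lowest, yet all were above the early ones, for a difference of 4.16 ± 0.30.

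Signals between supporting and germ cells were among the risers. Kitl, the ligand for Kit, read 779 and 945 (11.5 dpc), 1164 and 1129 (12.5 dpc), 1443.5 and 1486 (14.5 dpc), 1586 and 1733 (16.5 dpc), and 1381 and 1550.4 (18.5 dpc). The late samples were above the early ones by a gap of 0.24, and the difference was 0.64 ± 0.10. Rspo1, an activator of Wnt signalling that the fetal ovary needs, read 81, 81.7, 148 and 102 early and 158, 182, 178 and 181 late and rose by 0.71 ± 0.14. Irx3, Runx1 and the cell cycle inhibitor Cdkn1b rose by 2.17, 1.04 and 0.75. Wnt4, another gene of ovary formation, was not called (-0.16 ± 0.19, limma adjusted p = 0.605). Fst, an activin antagonist of pregranulosa cells, read 22.7, 71, 413 and 236 early and 317, 444, 235 and 216 late. The 12.5 dpc samples overlapped with the late ones, so Fst was called (1.15 ± 0.26) but not separated, and it was not called in the fit of 2 groups (adjusted p = 0.203) or as the mean of its 2 tested probe sets (difference 0.67).

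Genes of the undifferentiated gonad fell. In the list of gonad-forming transcription factors, 7 of 16 tested were called and separated downwards (43.8%, against 8.9% of all genes) and 1 upwards (Osr1, 1.02). Nr2f1, an orphan nuclear receptor of mesenchyme, read 221 and 280.2 (11.5 dpc), 95.8 and 262 (12.5 dpc), 41.6 and 43.3 (14.5 dpc), 46.6 and 24 (16.5 dpc), and 33.5 and 24.1 (18.5 dpc). It was already at the late level at 14.5 dpc and fell by 2.19. Lhx9, which the gonadal ridge needs to grow, read 732 and 393 (11.5 dpc), 266 and 300.2 (12.5 dpc), 367 and 388 (14.5 dpc), 211 and 257 (16.5 dpc), and 182 and 142.5 (18.5 dpc). The groups were separated by a gap of only 0.05, with a difference of -0.95 ± 0.17 for this probe set and -1.53 for another. Wt1, a regulator of gonad and mesothelium, read 679, 797, 839 and 579 early and 485, 527, 468 and 447 late, a difference of -0.56 ± 0.13. Nr2f2 (-1.35) and Cbx2 (-1.30) fell as well. Nr5a1, a regulator of steroidogenic and supporting cells, was not called (-0.29 ± 0.16), but was without 11.5 dpc replicate 1 (-0.51, adjusted p = 0.00793). For Gata4 the chosen probe set was called (-0.48 ± 0.14) and another was not (0.04), and the call was lost when 11.5 dpc replicate 2, 12.5 dpc replicate 1 or any late sample was left out (adjusted p from 0.056 to 0.141).

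Of 16 Sertoli and Leydig cell genes of the testis tested, 1 was called and separated upwards (Hsd3b1, 1.12; 6.25%, against 10.2% of all genes) and 3 downwards (Rhox5, Dmrt1 and Cyp11a1; 18.8%, against 8.9%), while 11 were not called. Dmrt1, a transcription factor that supporting and germ cells share before it becomes male-specific, read 73.2 and 65.7 (11.5 dpc), 68.9 and 55.3 (12.5 dpc), 59.2 and 44.9 (14.5 dpc), 4.1 and 2.9 (16.5 dpc), and 17.7 and 4.1 (18.5 dpc). It stayed near the early level at 14.5 dpc and was low in all late samples, a difference of -1.86 ± 0.22. Sox9, the Sertoli cell determinant, overlapped between groups and was called lower (-0.54 ± 0.16). The call of Sox9 was lost without any of the replicate 2 samples of the 4 ages (adjusted p from 0.0629 to 0.127). Its other probe sets gave -1.38, called and separated, and 0.22, not called. Amh, the Sertoli cell hormone, did not reach the signal needed for testing, at 11.0 to 21.7 in the early and late samples.

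Retinoic acid and steroid genes moved by member. Aldh1a1, which makes retinoic acid, read 674 and 510.3 (11.5 dpc), 489 and 581.5 (12.5 dpc), 2034 and 1899 (14.5 dpc), 2509 and 2271 (16.5 dpc), and 2828.5 and 2758 (18.5 dpc). It rose by 2.17 ± 0.11 (limma adjusted p = 1.8e-07), with 14.5 dpc close to the late samples. Aldh1a2, another enzyme of the same step, read 452, 455, 310.2 and 317.5 early and 268, 248, 227.5 and 195 late, a difference of -0.66 ± 0.17. The retinoic acid binding protein Crabp2 fell by 1.81. Of 10 steroid genes tested, 3 were called and separated upwards (30%, against 10.2% of all genes) and 1 downwards (10%, against 8.9%), namely Cyp11a1, which starts steroid synthesis from cholesterol (-1.09 ± 0.26). Esr1, an estrogen receptor, read 45.9, 54, 61.4 and 81.4 early, 147 and 138 at 14.5 dpc and 239.8, 172, 192 and 181 late. All late samples were above the others, and Esr1 rose by 1.48 ± 0.25. Star, which carries cholesterol into mitochondria for steroid synthesis, was not called (-0.29 ± 0.27). Of 7 adrenal cortex genes tested, 0 were called and separated upwards and 1 downwards (Cyp11a1; 14.3%, against 8.9% of all genes). Mc2r, also on that list, was called lower with overlap (-1.61 ± 0.43), and another Mc2r probe set was called and separated (-0.78). Which cells gave the Cyp11a1 signal was not tested.

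Cell cycle and DNA replication genes fell as a group. Of 68 members tested, 33 were called and separated downwards (48.5%, against 8.9% of all genes) and 5 upwards, with a median of -0.55. Rrm2, a subunit of the enzyme that makes DNA precursors, read 555 and 427 (11.5 dpc), 429.6 and 392 (12.5 dpc), 238 and 217 (14.5 dpc), 151 and 155 (16.5 dpc), and 132 and 137 (18.5 dpc). The late samples were all below the early ones by a wide margin, with 14.5 dpc between, a difference of -1.54 ± 0.12 (limma adjusted p = 4.09e-06). Its partner Rrm1 read 726, 516.5, 354 and 423 early and 209.8, 201, 155 and 180.2 late, with a difference of -1.32 ± 0.14 for this probe set and 0.11 for another (not called). Mcm7, of the replicative helicase, read 703 and 725 (11.5 dpc), 743 and 806 (12.5 dpc), 518 and 378 (14.5 dpc), 320.4 and 309 (16.5 dpc), and 238 and 240.2 (18.5 dpc). It fell by 1.39, with 14.5 dpc in the gap, and Mcm2, Mcm3 and Mcm4 gave -0.79, -0.90 and -1.29, all called.

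Among other members of this list, Top2a, which untangles chromosomes, read 546 and 448 (11.5 dpc), 513 and 482 (12.5 dpc), 465 and 362 (14.5 dpc), 269 and 248 (16.5 dpc), and 135 and 134 (18.5 dpc). Its level at 14.5 dpc was close to the early samples and 18.5 dpc was the lowest, for a difference of -1.33 ± 0.12. Mki67, a marker of dividing cells, read 446, 439, 415 and 385.5 early and 281, 334, 204 and 195.5 late, a difference of -0.73 ± 0.13 for this probe set and -0.24 for another (not called). Skp2, which targets Cdkn1b for destruction, read 2034, 1347, 881 and 1008 early and 252, 247, 159 and 146.5 late and fell by 2.58 on this probe set and by 0.91 on another. The 5 that rose were Ccnd2 (1.5), Bub1 (0.87), Cdkn1b (0.75), Smc4 (0.69) and Cdk6 (0.46). Ccnd2, a D-type cyclin of granulosa cells, read 23.5, 115.5, 72.8 and 117 early and 237, 462, 168 and 160.0 late, with no overlap.

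The promoters of replication genes that fell are shown with the same motif, GCGGGAA, in capitals, or its reverse complement TTCCCGC where the match is on the other strand. They too were chosen after the values were seen. The match begins at -165 from the start in Mcm7 (chr5:138171834-138172133, minus strand, the more upstream of its 2 promoters, which both hold it) and at -67 in Rrm1 (chr7:102441445-102441744, plus strand).
Mcm7: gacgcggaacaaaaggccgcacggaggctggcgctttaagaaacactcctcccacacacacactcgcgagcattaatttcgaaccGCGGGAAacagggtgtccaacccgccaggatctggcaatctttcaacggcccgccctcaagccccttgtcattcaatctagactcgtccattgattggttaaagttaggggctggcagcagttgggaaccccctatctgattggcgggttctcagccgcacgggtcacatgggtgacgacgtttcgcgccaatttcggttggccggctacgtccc
Rrm1: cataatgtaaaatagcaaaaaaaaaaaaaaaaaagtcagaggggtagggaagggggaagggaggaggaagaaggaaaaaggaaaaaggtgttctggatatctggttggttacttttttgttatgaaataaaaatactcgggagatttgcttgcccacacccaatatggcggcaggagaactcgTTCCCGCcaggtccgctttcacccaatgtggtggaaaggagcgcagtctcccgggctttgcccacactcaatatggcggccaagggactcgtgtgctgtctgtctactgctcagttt
Of the 33 cell cycle genes that fell, 29 had a promoter in the table and 7 of them held GCGGGAA (24.1%). The share was also 24.1% among all 54 tested members with a promoter, whichever way they moved, against 9.14% of all tested genes. The 29 are among these 54, so similar shares are partly built in. Of the 3 members that rose and had a promoter, 0 held the motif. Whether the motif went with direction was not tested.

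Some stroma and matrix genes rose. Of 38 mesenchyme and extracellular matrix members tested, 13 were called and separated upwards (34.2%, against 10.2% of all genes) and 2 downwards, with a median of 0.43. Eln, which encodes elastin, read 65.1 and 48.1 (11.5 dpc), 77.9 and 76.5 (12.5 dpc), 283 and 302 (14.5 dpc), 904 and 843 (16.5 dpc), and 798 and 784 (18.5 dpc). The 4 late samples were within a narrow range far above the early ones, a difference of 3.37 ± 0.11 (limma adjusted p = 3.25e-09), or 10.3-fold for this probe set and 1.41 on the log2 scale for another. Col1a1, of fibrillar collagen I, read 158 and 290.5 (11.5 dpc), 350.1 and 468 (12.5 dpc), 365 and 505 (14.5 dpc), 1775 and 951 (16.5 dpc), and 721 and 834.5 (18.5 dpc). On this probe set it was highest at 16.5 dpc and rose by 1.71 ± 0.22. Another Col1a1 probe set rose by 0.66, with 638 and 646 at 16.5 dpc and 698 and 562 at 18.5 dpc. Mgp, a matrix protein that limits calcification, read 23.2, 11.5, 45.6 and 55.4 early and 346, 258, 293 and 276 late and rose by 2.72 ± 0.18. Dcn and Lum, small proteoglycans of collagen fibres, rose by 1.31 and 1.58. Vcan, a large proteoglycan of embryonic mesenchyme, went the other way, with 158, 242, 75.3 and 226.5 early and 48.9, 37.2, 17.2 and 51.7 late (-1.75 ± 0.29).

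Some surface epithelium genes rose as well. Of 14 members tested, 6 were called and separated upwards (42.9%, against 10.2%) and 2 downwards (Aldh1a2 and Wt1, given above). Krt19, a keratin of simple epithelia, read 52.3 and 49.6 (11.5 dpc), 48.4 and 68.2 (12.5 dpc), 261 and 252 (14.5 dpc), 445 and 624 (16.5 dpc), and 729 and 675 (18.5 dpc). The signal at 12.5 dpc lay near that at 11.5 dpc and each later age lay above the one before, and the difference was 3.15 ± 0.14 (limma adjusted p = 3.05e-08). The partner keratins Krt8 and Krt18 rose by 1.56 and 1.43, and Upk3b, a mesothelial marker, by 1.30. Of 13 smooth muscle genes, 2 were called and separated upwards (Tagln, 0.98, and Acta1, 1.23) and 1 downwards (Cnn2, -0.72). These are 15.4% and 7.69%, against 10.2% and 8.9% of all genes.

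Blood and vessel genes changed between the groups. All 3 embryonic globins tested fell. Hba-x, the embryonic alpha-type globin, read 4898 and 4308 (11.5 dpc), 4076.5 and 4952 (12.5 dpc), 741 and 839 (14.5 dpc), 142 and 86.5 (16.5 dpc), and 62.3 and 51.9 (18.5 dpc). The early ages overlapped and each age after 12.5 dpc lay below the one before. The difference was -5.56 ± 0.14 (limma adjusted p = 2.71e-10), the largest of any gene in either direction on this scale. With a pseudocount of 1 it was -5.82, and those of Sycp1 (7.08) and Terb1 (6.43) were larger. Hbb-y, an embryonic beta-type globin, read 8182 and 7160.4 (11.5 dpc), 8336 and 9950.2 (12.5 dpc), 7712 and 7288 (14.5 dpc), 487 and 435 (16.5 dpc), and 618 and 600.0 (18.5 dpc). It was still at the early level at 14.5 dpc and low in the late samples, a difference of -3.94 ± 0.10 for this probe set and -4.68 for another. Among adult globins, Hbb-b2 read 556 and 497.5 (11.5 dpc), 1150.5 and 1689.8 (12.5 dpc), 5635 and 5848 (14.5 dpc), 6703 and 8016 (16.5 dpc), and 7773 and 8015 (18.5 dpc) and rose by 3.12 ± 0.13. Hba-a1 rose by 1.49 ± 0.11. Globin genes are near-identical copies, so these probe sets may read more than 1 of them.

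Apart from the embryonic globins, 14 erythroid genes were tested, the adult globins among them. Hbb-b2, Hba-a1 and Alas2 (0.74, an enzyme of red cell haem synthesis) were called and separated upwards and Urod downwards (21.4% and 7.14%, against 10.2% and 8.9% of all genes), with a median of -0.03. The summed signal of the 3 embryonic globins was 11743 to 15193 in the early samples and 549 to 735 in the late ones. The summed signal of Hbb-b2 and Hba-a1 was 4167 to 8525 early and 17445 to 23714 late. That of the other 12 erythroid genes was 2473 to 3778 early and 2022 to 2359 late. Urod made up much of this sum, with 2115, 1335, 877.5 and 1055 early and 705, 665, 550 and 458 late. The median difference of the 12 was -0.05, with 1 called and separated upwards and 1 downwards, so the sum is not read as a fall of these genes together. Urod, a haem enzyme used by many cells, gave -1.10 ± 0.16 on the chosen probe set and 0.06 on another (not called).

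Endothelial genes fell in part. Of 17 tested, 5 were called and separated downwards (29.4%, against 8.9% of all genes) and 0 upwards (8 and 1 in limma at an unadjusted p under 0.05), and their summed signal was 2174 to 2368 early and 1703 to 2052 late. Emcn, a sialomucin of capillaries and veins, read 211 and 224 (11.5 dpc), 146 and 214 (12.5 dpc), 88.3 and 61.2 (14.5 dpc), 106 and 70.9 (16.5 dpc), and 50.2 and 41.5 (18.5 dpc). The 14.5 dpc samples were already in the late range, and the difference was -1.41 ± 0.17 for this probe set and -1.91 for another. Cdh5, the cadherin of endothelial junctions, read 107, 122.5, 93.2 and 111.5 early and 83.1, 37.4, 14.1 and 31.6 late (-1.24 ± 0.23). Pecam1 and Kdr, also endothelial, were not called (0.08 ± 0.15 and 0.22 ± 0.18). Of 10 macrophage and leukocyte genes tested, 0 were called by limma in either direction (1 at an unadjusted p under 0.05) and 2 were separated upwards without a call. Their summed signal was 1170 to 1681 early and 1316 to 1560 late, and the defining marker Ptprc read 11.6 or less on all its probe sets. Of 5 mesonephros and kidney tubule genes tested 0 were called by limma or had an unadjusted p under 0.05, and Pax2 and Pax8 were at 37.6 or less. The part of these other cells in the germ cell and stroma results was not tested.

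Genes tied to embryonic timing fell. Of 13 members tested, 6 were called and separated downwards (46.2%, against 8.9% of all genes) and 0 upwards (9 and 0 in limma at an unadjusted p under 0.05). Hmga2, a chromatin protein of growing embryonic tissue, read 1559.6 and 1508 (11.5 dpc), 1323.5 and 1623 (12.5 dpc), 443 and 364 (14.5 dpc), 108 and 109 (16.5 dpc), and 104 and 78.9 (18.5 dpc). Early, 14.5 dpc and late samples formed separate groups, with a difference of -3.72 ± 0.12 (limma adjusted p = 2.74e-09), a 13.1-fold fall. Sox11, a transcription factor of embryonic progenitors, read 4214.5, 3070.3, 1900.5 and 2688 early, 1091 and 1729.8 at 14.5 dpc and 1074.5, 881, 549.9 and 579 late. It fell by 1.92, and its 3 other tested probe sets fell too (-1.27 to -1.61). Igf2bp1, an RNA-binding protein of fetal tissue, fell (-1.71), as did Mycn (-0.82). Lin28a, which blocks let-7 maturation, was not called (-0.67 ± 0.27, limma adjusted p = 0.0961). Of 20 Hox genes tested, which set position along the body, 8 were called and separated downwards (40%, against 8.9%) and 0 upwards (10 and 1 at an unadjusted p under 0.05 in limma), among them Hoxd9 (-1.39; another probe set -1.04) and Hoxd10 (-1.55; another probe set -0.78).

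Cholesterol and glucose metabolism genes moved down where they moved. Of 20 cholesterol synthesis and uptake genes, 7 were called and separated downwards (35%, against 8.9% of all genes) and 0 upwards (10 and 0 in limma at an unadjusted p under 0.05). Idi1, an enzyme of isoprenoid synthesis, read 267 and 222 (11.5 dpc), 233 and 196 (12.5 dpc), 259 and 231 (14.5 dpc), 73.5 and 87.3 (16.5 dpc), and 71.2 and 67.5 (18.5 dpc). It stayed at the early level at 14.5 dpc and was lower in all late samples, a difference of -1.43 ± 0.12 for this probe set and -1.06 for another. Fdps, Sqle and Hmgcs1, of the same pathway, fell too (-0.98, -0.83 and -0.75). Of 18 glycolysis genes, 3 were called and separated downwards (16.7%, against 8.9%) and 0 upwards. Ldhb, a subunit of lactate dehydrogenase, read 1185, 1232, 1270.0 and 1184 early and 573, 586, 484.5 and 538 late (-1.14 ± 0.14). Pkm, the last enzyme of glycolysis, fell by 0.79.

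Signalling pathways had few members called and separated. Of 41 TGF-beta, activin and BMP genes, 7 were called and separated upwards (17.1%, against 10.2%) and 3 downwards (7.32%, against 8.9%). Id1, a target of BMP signalling, read 263 and 280.0 (11.5 dpc), 378 and 424 (12.5 dpc), 422 and 332.5 (14.5 dpc), 685 and 785 (16.5 dpc), and 2002 and 2022 (18.5 dpc). The samples of 18.5 dpc stood above all others, and the difference was 1.83 ± 0.11 (limma adjusted p = 6.78e-07). Ltbp4, which stores latent TGF-beta in the matrix, read 50.1, 91.2, 264 and 177 early and 644, 528, 399 and 408 late and rose by 1.84 ± 0.17. Smad6 and Smad7, inhibitors of the pathway, fell (-0.75 and -0.50). Of 18 Notch genes, Hes1, a Notch target, rose (0.77 ± 0.12) and Hey1, another target, fell (-0.95). That is 5.56% each way, below the 10.2% and 8.9% of all genes.

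Of 15 genes of the insulin-like growth factor system tested, 4 were called and separated upwards (26.7%, against 10.2%), namely the binding proteins Igfbp2, Igfbp3, Igfbp6 and Igfbp7, and 2 downwards (13.3%, against 8.9%), with a median of 0.09. Igfbp2 read 214 and 367 (11.5 dpc), 975 and 753 (12.5 dpc), 1419.8 and 1794 (14.5 dpc), 1404 and 2349 (16.5 dpc), and 1495 and 1527 (18.5 dpc). It differed between the early ages but stayed below all late samples, and rose by 1.72 ± 0.19. Igfbp6 read 14.7, 21.8, 13.5 and 22.2 early, 23.3 and 24 at 14.5 dpc and 148, 85.5, 94.3 and 160.4 late. It stayed low until after 14.5 dpc and rose by 1.99 ± 0.22. Igf2 itself was not called (-0.17 ± 0.12, limma adjusted p = 0.329), and the receptor Igf1r fell by 0.84.

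Further lists are given by their counts. Of 20 imprinted genes, 4 were called and separated downwards (20%, against 8.9%), namely Phlda2 (-1.78), Nnat (-1.53), Peg10 (-1.52) and Mest (-0.97), and Meg3 rose (0.81). Of 37 DNA methylation and chromatin genes, 5 were called and separated downwards (13.5%, against 8.9%) and 2 upwards (Smarca5 and Ezh1; 5.41%, against 10.2%). Among those that fell was Ezh2, the Polycomb methyltransferase, with 459.9, 319, 361 and 298 early and 169, 221, 134.5 and 163 late (-1.0 ± 0.14). Of 15 antigen presentation and complement genes, 3 were called and separated upwards (20%, against 10.2%) and 0 downwards. H2-K1, of the class I molecules, read 95.6, 119, 124 and 135 early, 481 and 549 at 14.5 dpc and 696, 758, 296 and 285 late and rose by 1.83 ± 0.11. Another H2-K1 probe set rose by 1.69, and a further one overlapped between groups and was not called (0.36). Class I genes are near-identical copies, so H2-K1 and H2-D1 (1.67) may share reads of 1 transcript. Of 54 respiratory chain genes, 7 rose (13%) and 4 fell (7.41%), near the shares among all genes. Of 27 Wnt genes, 4 were called and separated upwards (14.8%, against 10.2%) and 1 downwards (3.7%, against 8.9%). Of 20 cell death genes, 1 was called and separated each way (5%, below both shares of all genes).

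Ribosomal protein genes depended on the scaling. With the authors' scaling, 6 of 31 tested were called and separated upwards (19.4%, against 10.2%) and 0 downwards (10 and 3 in limma at an unadjusted p under 0.05), with a median of 0.15. After quantile normalization the median was -0.002, and Rpl41 and Rps28 gave 0.01 and -0.002 in place of 0.62 and 0.54. Rps28 read 8897, 8748, 8872 and 9925 early and 11674, 13589, 13916 and 14077 late. No direction is drawn for this list.

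**Figure D3:**
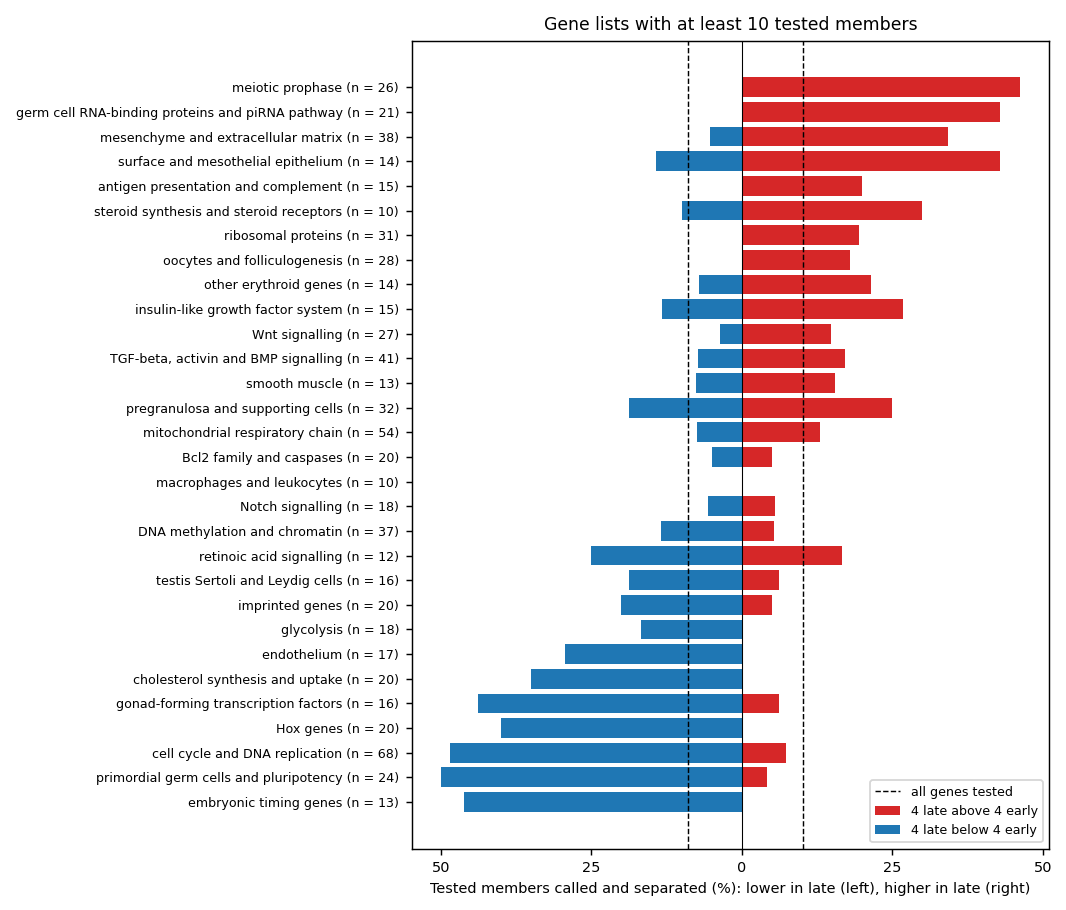
Share of tested members (percent) that were called and separated for 30 gene lists with at least 10 tested members, lower in late ovaries to the left in blue and higher to the right in red. Dashed lines mark the shares among all 12589 genes tested, 10.2% upwards and 8.9% downwards, with meiotic prophase at the top and embryonic timing and pluripotency genes at the bottom.

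Some of the largest changes were in genes outside these lists. Cpa1, a digestive enzyme of the pancreas, read 504 and 902 (11.5 dpc), 544 and 244 (12.5 dpc), 19 and 28.3 (14.5 dpc), 12.6 and 13.3 (16.5 dpc), and 12.2 and 5.2 (18.5 dpc). It was low from 14.5 dpc on and fell by 4.27 (SE 0.34; limma adjusted p = 5.08e-06). Efna1, a membrane ligand of Eph receptors, read 44.8, 25.6, 29.9 and 34.4 early, 305 and 357 at 14.5 dpc and 318, 521, 525 and 525 late. The difference was 3.28 ± 0.24 for this probe set and 0.98 for another on array A. Tktl1, a transketolase-like enzyme, read 4.6 and 10.5 (11.5 dpc), 17.1 and 22.3 (12.5 dpc), 78.6 and 99.1 (14.5 dpc), 183 and 236 (16.5 dpc), and 279 and 253 (18.5 dpc). It rose in order of age, by 3.12 ± 0.16. Catsper2, a subunit of a sperm calcium channel, rose by 3.16 ± 0.27, and Cfap54, a protein of motile cilia, by 3.12 ± 0.32. Cpne8, a copine, fell by 2.73 on this probe set, while another was not called (-0.55). Stil, a centriole protein, likewise fell by 2.81 on the chosen probe set, while another was not called (-0.74).

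The chosen probe set of a gene was not always matched by its others. Of the called and separated genes, 1051 had another tested probe set, which was called in the same direction for 361 and in the opposite direction for 27. Probe sets with f, i or r added to the suffix, which include those chosen for Terb1, Meioc, Sox2, Hbb-y, Skp2 and the H2 genes, may not be specific to the gene.

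At the edge of separation, the narrowest gaps among the genes named were those of Dnmt3b (0.01), a DNA methyltransferase, and Hes1 (0.02). Dnmt3b read 106, 83.3, 60.8 and 79.3 early and 60.5, 26.4, 31.3 and 44.3 late, and its call (-0.81 ± 0.25, limma adjusted p = 0.0383) was lost when any sample other than 11.5 dpc replicate 2, 14.5 dpc replicate 1 or 16.5 dpc replicate 1 was left out, at adjusted p from 0.0507 to 0.14. Another Dnmt3b probe set gave 0.50 with overlap (not called), and the mean of both gave -0.16 (limma adjusted p = 0.585). Just outside, H2-K2 read 12, 20.6, 15.9 and 16.1 early and 256, 388, 21.9 and 20.1 late, so that a single late sample fell below the highest early one. In all, 641 probe sets were called higher and 569 lower without separation, and 1184 were separated without a call.

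The 14.5 dpc samples divided the changed probe sets by timing. Of the 1971 called and separated upwards, both 14.5 dpc samples were in or below the early range for 457 (23.2%), both in the gap for 332 (16.8%) and both in or above the late range for 390 (19.8%). Of the 1812 downwards, the counts were 464 (25.6%) on the early side, 311 (17.2%) in the gap and 251 (13.9%) on the late side. The remaining probe sets had their 14.5 dpc samples in different positions. Terb1, Syce1, Tex12, Spo11 and Igfbp2 were among those at the late level by 14.5 dpc, and Fbxo43, Alas2 and Id1 among those still at the early level. Downwards, Nr2f1, Emcn and Cdh5 had reached the late level, while Hbb-y, Rhox9, Rhox5 and Idi1 had not left the early one.

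**Figure D4:**
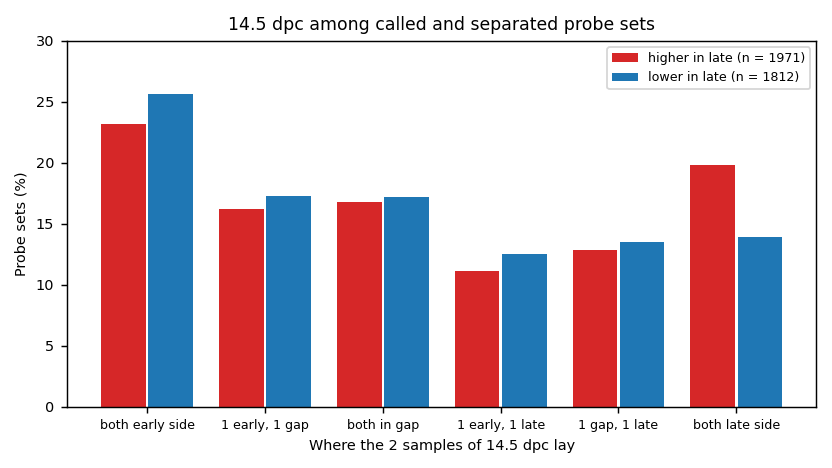
Percent of called and separated probe sets, 1971 higher in late ovaries (red bars) and 1812 lower (blue bars), by where the 2 samples of 14.5 dpc lay relative to the ranges of the 4 early and 4 late samples. Both samples on the early side was the most frequent position in both directions, at 23.2% and 25.6%.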

How the data were processed

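RNA of pooled embryonic mouse ovaries was measured on 30 arrays, 10 of each of 3 types. What was deposited is an intensity for every probe set of an array, and per the labels the authors scaled arrays to a mean of 125. The software behind these intensities was not given in the sources used here. Detection calls were not used, and no low intensity was called absent. Of 36899 probe sets, 198 were controls, and only the 29131 with 1 gene symbol in the platform annotation were named.

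Samples were grouped by the age in their titles. Probe sets with a signal of at least 50 on at least 2 of the 10 arrays of their type were tested on log2(signal + 16) with limma 3.58.1 in R 4.3.3 (lmFit with 5 ages as groups, eBayes with an intensity trend, 5 residual degrees of freedom). The contrast was the mean of 16.5 and 18.5 dpc minus the mean of 11.5 and 12.5 dpc. Benjamini-Hochberg adjustment was made over all 3 types at once. Signals of different probe sets are not compared. To count genes, the tested probe set of highest mean log2 signal stood for its gene. The number of arrays limits the precision. The procedure was tested on simulated data.

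The groups, the members and the 36 gene lists were chosen with earlier results of these data known. Genes were named by a rule: the 12 largest changes and 5 widest gaps per direction among called and separated genes with a mean signal of at least 100 in the higher group, up to 4 per list, the 6 largest called but overlapping per direction, and a fixed set of ovarian genes. Not every gene named by the rule is described in the text. Pebp4, Plagl1, Tmem225, Piwil2, Prdm16 and Ahnak2, all called but overlapping, are among those left out. Other members in the text were chosen after their values were seen. Hbb-b1 and H19 of the fixed set are not analysed here, because no probe set was named for them. Promoters are from RefSeq, assembly GRCm38.p6. Alternatives tried were other pseudocounts, filters, scalings, models and choices of probe set, and leaving out each sample.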

Additional observations from a re-analysis of the deposited data

Results flagged for a closer look

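Kit, Trim71, Dppa3 and Ccno lay below all 4 early samples at 16.5 dpc and above all 4 at 18.5 dpc. For Ccno the 16.5 dpc signals (4.6 and 5) and the early ones (6.1 to 16.6) were all near the bottom of the scale, so no fall is read from them. For Trim71 a 16.5 dpc sample (113.8) lay just below the lowest early one (115). The mean signal at 18.5 dpc was 305.1 for Kit, 581.5 for Trim71, 1162.3 for Dppa3 and 428.5 for Ccno, against 34.8, 65.7, 29.2 and 4.8 at 16.5 dpc. The difference between these ages was not tested.

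In the samples of 14.5 dpc, which neither group used, 5 of the named genes were above all 8 early and late samples. Their mean signals there were 597.8 for Stra8 (highest of the others 83.1), 586.6 for Meioc (363.7), 1564.9 for Rec8 (941.2), 2060.8 for Rhox13 (1513.5) and 105.2 for Acta1 (53.2). Over all genes tested, 409 had both 14.5 dpc samples above the other 8 and 285 below. How many genes would do so with the samples in random order was not computed, so these counts are not read as peaks or dips.

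Of 314 groups of 4 samples examined among the named genes, 19 had a sample far from the other 3, and chance flags about 1 in 20. Among early samples, 12.5 dpc replicate 1 was high for Foxl2 (242.9, others 89.5 to 94.5) and low for Emcn (146.4, others 210.8 to 224.2). In 12.5 dpc replicate 2 Rps28 was high (9925.0, others up to 8897.3) and Wnt6 low (891.3, others from 1168.0). In 11.5 dpc Cycs was high in replicate 1 (365.5, others up to 138.5) and Spo11 in replicate 2 (418.2, others up to 305.4).

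Among late samples, 16.5 dpc replicate 1 was high for Dcn (1269.0, others up to 903.9) and low for Efna1 (317.9, others from 520.6), Krt18 (226.7, others from 362.8) and Cycs (41.0, others from 54.8). In 16.5 dpc replicate 2 Birc2 (320.4, others up to 262.2), Igfbp2 (2348.9, others up to 1526.8) and Rpl19 (8925.4, others up to 7229.7) were high. In 18.5 dpc replicate 1 Dmrt1 (17.7, others up to 4.1) and Hbb-bh1 (55.0, others up to 27.3) were high. In 18.5 dpc replicate 2 Porcn was high (75.9, others up to 6.7), while Cpa1 (5.2, others from 12.2), Hmga2 (78.9, others from 103.7) and Igfbp7 (55.2, others from 73.7) were low.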

How the results depend on the processing

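Leaving out each sample in turn gave 1709 to 2605 probe sets called higher and 1588 to 2307 called lower, the lowest count upwards (1709) without 18.5 dpc replicate 1. Called and separated probe sets numbered 1496 to 2030 upwards and 1413 to 1861 downwards, where separation is easier to meet once an early or late sample is left out. Fitting late and early as 2 groups gave 1679 and 1538, and 3196 of the 3783 were shared. Median centring gave 2248 called higher and 2575 lower. The replicate numbers did not pair the samples (correlation of deviations -0.161 to 0.219), and with the number as a block 1900 and 1756 were called and separated, 3625 of them shared. The Gapdh ratio differed by 0.18 to 0.237 with a sample left out, and missed the threshold without any 1 early sample (exact permutation p = 0.0571). Of 157 genes examined, 120 kept their direction and side of the threshold under every alternative run. Signs turned for Kit with a pseudocount of 64 (0.093) and within its range with a sample left out (-0.119 to 0.055), for Trim71 with a pseudocount of 64 (0.081) and within the same kind of range (-0.587 to 0.388), for Rps28 after quantile normalization (-0.002), and on array A alone for Fzd7 (0.089), Gata4 (0.041) and Urod (0.059). On array A alone these genes were read by another probe set; for the other changes the cause was not tested. Low signals limit the separation of genes near the bottom of the scale.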
